A study of Mus musculus with 3 samples.

Results

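Mecom and Prdm16 are paralogous mouse genes that encode zinc-finger transcription factors of the PR domain family, and the peaks described here are those that a chromatin immunoprecipitation (ChIP-seq) of the nucleoporin Seh1 placed at both genes. A peak was taken as a member where the deposited annotation gave it to either gene by the nearest transcription start site (TSS), or where it lay in an exon or intron of one of their transcripts. This selected 4 of the 16113 peaks of the Seh1 list, of which 3 belonged to Mecom and 1 to Prdm16, and 0 of the 5314 peaks of the IgG list. Mecom was chosen by the width of its exon peak in this Seh1 list, and Prdm16 as its paralogue, so the widths and counts are descriptions without a test.

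The study profiled primary neural stem cells of wild type genotype, cultured from newborn (P0) mouse cortex in growth medium with EGF and bFGF. All groups shared this genotype and medium, and they differed only in the precipitation. There was 1 library with an antibody against Seh1, a subunit of the nuclear pore, 1 library with IgG as the background control and 1 input library, made from chromatin without a precipitation step. The names in the file headers pair each peak list with the input. With 1 library per group there is no replicate error, and the number of reads behind a peak is unknown. The deposited score was 0 for every peak, so width was the only measure of a peak's size. A peak list carries no expression values, so the labelled cell type could not be checked by expression. Of 7 neural stem cell marker genes, Hes1, Prom1 and Vim were given Seh1 peaks, and Sox2, Nes, Pax6 and Hes5 were not, where 31.9% of all protein-coding genes were. Vim was also given an IgG peak, 9.67 kb from its TSS, while its Seh1 peak was 103 kb away.

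PR domain proteins carry a domain related to the SET domain of histone methyltransferases together with zinc fingers that bind DNA. Mecom, also called Prdm3, has an upstream start that gives the long form with the PR domain (Mds1-Evi1) and an internal start that gives the short form without it (Evi1). Its product is best known as a regulator of blood stem cells. Prdm16 is expressed in radial glia, the neural stem cells of the developing cortex, and is also known for its part in brown fat. Both proteins bind the corepressors CtBP1 and CtBP2.

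The sequences that anchor the distances below are those just upstream of the annotated starts, taken from RefSeq on GRCm38.p6, the same assembly as mm10. They are shown because the distances of the Mecom peaks are counted from these starts and neither list held a peak there; the peaks' own letters were not used here. Each line gives 250 bases, 5′ to 3′ on the minus strand, and capitals mark CpG dinucleotides. The windows are chr3:30509760-30510009 for the long Mecom form, chr3:30013205-30013454 for the short Mecom form and chr4:154636874-154637123 for Prdm16.
Mecom, start of the long form: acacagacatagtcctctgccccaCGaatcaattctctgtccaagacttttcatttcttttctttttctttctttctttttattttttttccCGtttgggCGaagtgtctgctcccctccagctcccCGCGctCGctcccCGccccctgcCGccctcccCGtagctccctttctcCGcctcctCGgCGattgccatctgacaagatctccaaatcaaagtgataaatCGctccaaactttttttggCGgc
Mecom, start of the short form: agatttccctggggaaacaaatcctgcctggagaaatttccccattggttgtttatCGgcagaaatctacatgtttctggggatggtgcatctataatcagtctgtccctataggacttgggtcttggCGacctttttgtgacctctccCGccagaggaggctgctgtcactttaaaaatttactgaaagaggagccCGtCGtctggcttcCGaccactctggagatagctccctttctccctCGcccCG
Prdm16 start: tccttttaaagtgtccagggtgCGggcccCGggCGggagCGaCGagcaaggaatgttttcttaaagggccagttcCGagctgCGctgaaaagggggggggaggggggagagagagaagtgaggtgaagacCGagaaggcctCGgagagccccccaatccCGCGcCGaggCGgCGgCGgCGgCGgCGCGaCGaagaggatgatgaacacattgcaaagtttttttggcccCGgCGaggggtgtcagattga

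The upstream sequence of Prdm16 held 22 CpG dinucleotides and had a GC content of 62.4%. The long Mecom start had 14 CpG and 50.8% GC, and the short Mecom start had 8 CpG and 50.4% GC. The median over 32851 start windows of the genome was 6 CpG and 52.4% GC, so all 3 starts lay above the median in CpG and only Prdm16 lay above it in GC. On either strand the motif TATAAA was in none of the 3 sequences (12.4% of all windows held it). The motif CCAAT was found on at least 1 strand upstream of the short Mecom start and of Prdm16, but not of the long Mecom start (33.8% of all windows held it).

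The long Mecom start and the Prdm16 start shared a run of 24 identical bases just downstream of the start, in the same orientation, with capitals marking the whole run.
Shared run: GCGCATGTGCGAAGGTGTCCAAAC
It began 27 bases from the Mecom start, counting the first transcribed base as 1, and reached the last base of the 50 available there. In Prdm16 it spanned bases 10 to 33. Of all 32851 windows of 300 bases around a start, 2 held this run on either strand, those of Mecom and Prdm16. The longest run that the short Mecom start shared with Prdm16 in the same orientation was 7 bases, and 2850 windows held that one.

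No Seh1 peak lay near any of these starts. The closest Seh1 peak centre was 44.2 kb from the long Mecom start, 33.0 kb from the short Mecom start and 40.7 kb from the Prdm16 start. The closest IgG peak centres were 1168, 886 and 874 kb away. The median Seh1 peak of the whole list lay 37.8 kb from its nearest TSS, a distance counted from peaks and not from starts. How far other starts lay from a Seh1 peak was not computed, so these starts cannot be called unusually far from one.

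Mecom spans 558 kb of chromosome 3, from 29951296 to 30509759 on the minus strand, and was given 3 Seh1 peaks and 0 IgG peaks. In the deposited annotation each of the 3 peaks was measured from a different RefSeq transcript. That of the intron peak starts at 30509675, just inside the long start at 30509759 shown above, and both starts give 217 kb. The first peak lay in an exon near the 3′ end of the gene, the second in the first intron and the third before the gene.

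The exon peak spanned 1160 bp, from 29979619 to 29980778, in exon 8 of 16 of the transcript NM_001370769. Its centre was 33.0 kb downstream of the internal start of the short form and 530 kb downstream of the start of the long form, or 94.8% of the way along the gene, so it lay downstream of both starts. Its width was 4.36 times the median of 266 bp over the Seh1 list, and 3 other Seh1 peaks were at least as wide. It was the widest of the 866 Seh1 peaks that the deposited annotation classed as exon, a class without UTRs. The next exon peaks spanned 799 and 726 bp, and the median exon peak spanned 269 bp. Of these 866 peaks, 23 were wider than 500 bp and only the one in Mecom was wider than 1000 bp. The IgG list, with 58 exon peaks, also held 1 wider than 1000 bp, which spanned 1018 bp and was narrower than the Mecom peak. Of these 58 IgG exon peaks, 8 were wider than 500 bp. Over all classes, wide peaks were more frequent in the IgG list: 28 of 5314 IgG peaks and 7 of 16113 Seh1 peaks were wider than 1000 bp. The widest peak spanned 2207 bp in the IgG list and 2002 bp in the Seh1 list.

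The intron peak lay from 30292445 to 30292687, in intron 1 of 16 of NM_001361034, between both starts. It was 217 kb downstream of the long start and 279 kb upstream of the short one. Its width of 243 bp was the minimum of the list, which 27.2% of Seh1 peaks had. At 217 kb from its TSS it was among the more remote peaks, since 89.0% of Seh1 peaks lay nearer to theirs.

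The third peak was intergenic, 272 bp wide, from 30553785 to 30554056. It lay 44.2 kb upstream of the long start, and 53.9% of Seh1 peaks were narrower. Its nearest Seh1 neighbour was 57.2 kb away, at Mynn, which encodes a zinc-finger protein. The peaks inside Mecom stood farther apart from others, with the nearest Seh1 peak 272 kb from the exon peak and 261 kb from the intron peak. Across the gene the longest stretch without a Seh1 peak centre was 312 kb, between the intron peak and the exon peak.

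**Figure D1:**
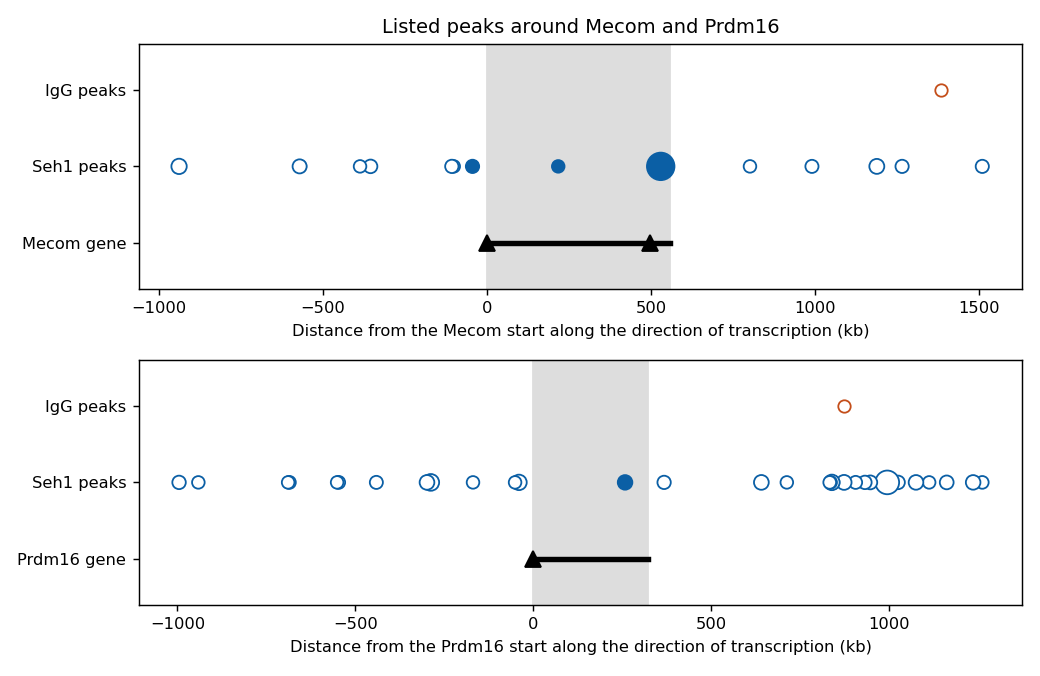
Positions of listed peaks around Mecom (top) and Prdm16 (bottom), as distance in kb from the gene's start in the direction of transcription, with negative values before the gene. Grey shading and the black line mark the gene, triangles the annotated starts, circles the Seh1 (blue) and IgG (orange) peaks with area in proportion to width, and filled circles the 4 peaks assigned to Mecom or Prdm16; the large filled circle is the exon peak of 1160 bp, and no IgG circle lies within 500 kb of either gene.

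**Figure D2:**
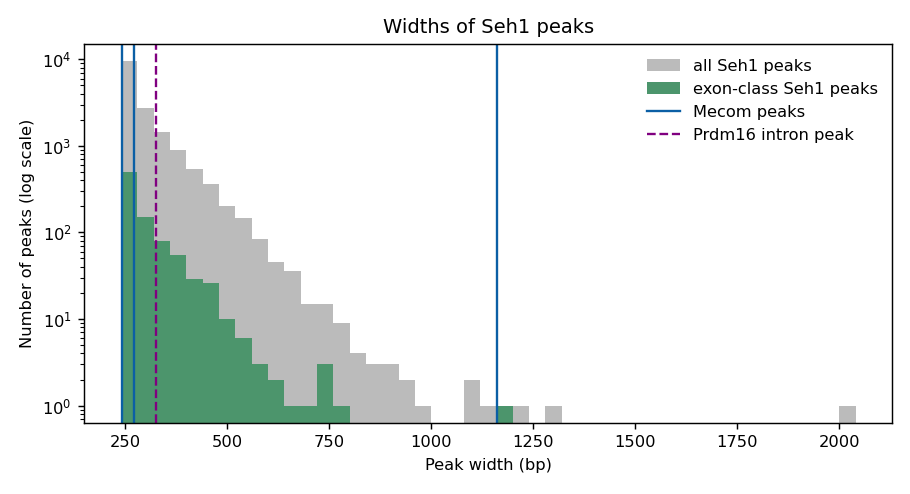
Widths of all 16113 Seh1 peaks (grey) and of the 866 exon-class peaks (green) in bins of equal width, with the number of peaks on a log scale. Solid lines mark the Mecom peaks at 243, 272 and 1160 bp and the dashed line the Prdm16 intron peak at 326 bp; the widest Mecom peak stands apart from the next exon peak at 799 bp.

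Prdm16 spans 321 kb of chromosome 4, from 154316122 to 154637360 on the minus strand, and was given 0 Seh1 peaks and 0 IgG peaks by the nearest TSS. Its only member peak was found through the annotation transcript. It spanned 326 bp, from 154379366 to 154379691, in intron 3 of 16 of NM_027504. The peak was 257 kb downstream of the annotated start and 80.3% of the way along the gene. The deposited table gave it to Arhgef16, the neighbouring gene of a guanine nucleotide exchange factor, because the TSS of that gene was closer, at 79.6 kb. Such a mismatch was common in this list. Of 5899 Seh1 peaks in introns of annotated transcripts, 31.9% were given to a gene other than the one whose intron held them.

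In width the Prdm16 peak exceeded 77.9% of all Seh1 peaks and 78.8% of the 5924 intron peaks. It was wider than the Mecom intron and intergenic peaks and narrower than the Mecom exon peak. No exon-class peak of either list lay in Prdm16. The nearest other Seh1 peak was 110 kb away, in an intron of Megf6, which encodes a protein with EGF-like repeats. Before the gene, the next Seh1 peak lay 40.2 kb beyond the 5′ end of its RefSeq span and was given to Actrt2, an actin-related gene. Inside the gene and up to these flanking peaks, the longest stretch without a Seh1 peak centre was 298 kb.

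The 3 member peaks in introns or intergenic sequence carried no repeat label. Repeats are labelled in this annotation only at such peaks, and 56.3% of the 14673 Seh1 peaks of these classes had no label either. Whether the Mecom exon peak overlaps a repeat is not given.

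None of the 4 member peaks overlapped an IgG peak, which only 60 of 16113 Seh1 peaks (0.372%) did. The nearest IgG peak centre was 853 kb from the Mecom exon peak, 1166 kb from the intron peak, 1124 kb from the intergenic peak and 616 kb from the Prdm16 peak. The median distance over all Seh1 peaks was 260 kb, and 77.0 to 91.0% of Seh1 peaks lay nearer to an IgG peak than the members did. No IgG peak lay inside either gene or within 500 kb of its ends. This held for 32.1% of all 21775 protein-coding genes, for 11.4% of genes within 1.5 times the length of Mecom and for 15.9% of genes within 1.5 times the length of Prdm16. Considering the gene body alone, 44.1% and 60.4% of the genes in these length classes held no IgG peak centre.

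The IgG list was also shorter than the Seh1 list, with 5314 against 16113 peaks. Because Mecom was chosen from the Seh1 list, its Seh1 count was not tested against its IgG count.

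Both genes are long, and long genes hold more peaks. The deposited annotation assigned 1 or more Seh1 peaks to 31.9% of all protein-coding genes and, as with Mecom, 3 or more to 6.08%. Among the 306 protein-coding genes within 1.5 times the length of Mecom (373 to 837 kb), 79.1% were assigned 1 or more Seh1 peaks and 36.3% were assigned 3 or more, with a median of 2. Among the 667 genes within 1.5 times the length of Prdm16 (214 to 481 kb), 69.4% were assigned 1 or more. Of all protein-coding genes, 3.67% held an exon-class Seh1 peak. Among genes near the lengths of Mecom and Prdm16 the shares were 11.8% and 10.9%. Mecom held such a peak and Prdm16 did not. Because Mecom was chosen by its exon peak, its holding one was fixed in advance.

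By position, 2 Seh1 peak centres lay inside Mecom, equal to the median of 2 in its length class, where the highest count was 12. This made 0.358 peaks per 100 kb of gene, against a class median of 0.426 and 0.506 over chromosome 3. Inside Prdm16 lay 1 peak centre, or 0.311 per 100 kb, against a median count of 2 and a median density of 0.457 in its length class and a density of 0.634 over chromosome 4. At least 1 Seh1 peak centre lay inside 79.4% of the genes near the length of Mecom and 73.3% of those near the length of Prdm16. In the class of Prdm16, 49.5% of genes held at most 1. By peak centres inside the gene, as a count or a density, both genes lay at or below the median of genes of like length. By the number of peaks assigned, Mecom with 3 lay above its class median of 2. Both counts of Mecom, assigned and inside, include the exon peak by which it was chosen. Being given 0 Seh1 peaks, as Prdm16 was, applied to 68.1% of all protein-coding genes and to 30.6% of its length class. Of its length class, 14.5% were given none but held at least 1 inside, as Prdm16 did, and of all protein-coding genes 4.02%.

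**Figure D3:**
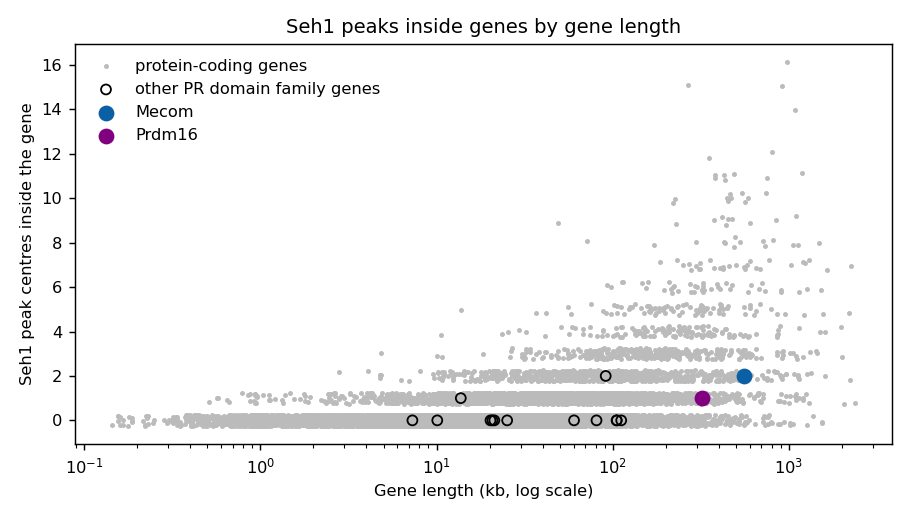
Seh1 peak centres inside each of 21775 protein-coding genes (vertical axis, grey points shifted slightly at random to separate them) against gene length in kb on a log scale. Mecom (blue, 2 peaks) and Prdm16 (purple, 1 peak) lie among genes of like length, and the open circles are the other 13 PR domain family genes.

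Outside the gene, 7 Seh1 peaks lay within 500 kb of the ends of Mecom, counting its own intergenic peak, and 10 within 500 kb of the ends of Prdm16. The median over all protein-coding genes was 7. Within 100 kb of the ends lay 1 Seh1 peak at Mecom, the same intergenic peak, and 3 at Prdm16, against a median of 1. Next to Mecom, Egfem1, 260 kb beyond its 3′ end, was given 2 Seh1 peaks and 1 IgG peak. Before its start, Actrt3 was given none and Mynn 2 Seh1 peaks. Next to Prdm16, Arhgef16 was given 2 Seh1 peaks, counting the one in the Prdm16 intron, Megf6 was given 0 but held 1 inside, Actrt2 was given 2 and Ttc34 was given 1. None of these 4 neighbours of Prdm16 was given an IgG peak.

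The other PR domain genes gave the members' family as background. Of the 15 family genes examined, 6 had an assigned Seh1 peak and 2 an IgG peak, beside 31.9% and 11.3% of all protein-coding genes. Without Mecom and Prdm16 the counts were 5 and 2 of 13. These shares were not matched for length. The median length was 60.4 kb in the family, 25.2 kb without Mecom and Prdm16 and 17.2 kb over all protein-coding genes. The median was 0 Seh1 peaks both in the family and over all protein-coding genes. Mecom and Prdm14, which maintains pluripotency and the germ line, were given 3 Seh1 peaks each. Prdm1 (Blimp1, a repressor in B cell and germ cell development), Prdm11 and Prdm13, a regulator of spinal cord and retinal interneurons, were given 2 each and Prdm2 (RIZ) 1. Prdm1 and Prdm13 were also given 1 IgG peak each. Prdm16 was among the 9 family genes given no peak of either list, together with Prdm4, Prdm6, Prdm8 and Prdm9, among others.

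Only Mecom, which was chosen by its exon peak, and Prdm14 held an exon-class peak within the family. The exon peak of Prdm14, in its last exon (8 of 8), was only 243 bp wide, the minimum, and ran from 13114250 to 13114492 on chromosome 1. The widest family peak after that of Mecom was intergenic and 529 bp wide, 3.25 kb upstream of Prdm11, the closest of the family's Seh1 peaks to a start. By the nearest TSS, the widest peaks given to the other family genes spanned 259 bp for Prdm1, 298 bp for Prdm2, 274 bp for Prdm13 and 397 bp for Prdm14. Some were remote from their gene. The 397 bp peak lay outside Prdm14, 95.7 kb upstream of its TSS, in an intron of the transcript NM_008678. The 274 bp peak lay 451 kb downstream of the Prdm13 TSS. By position, Seh1 peak centres lay inside 4 of the 15 genes, namely Mecom, Prdm16, Prdm1 and Prdm14, beside 19.5% of all protein-coding genes. The Prdm1 peaks lay inside its RefSeq span, but the deposited annotation classed them as intergenic, 11.8 and 28.8 kb upstream of the TSS. Mecom and Prdm16 are the longest of these 15 genes, whose median length is 60.4 kb. No IgG peak centre lay inside a family gene, and of all 21775 protein-coding genes only 1363 held one.

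**Figure D4:**
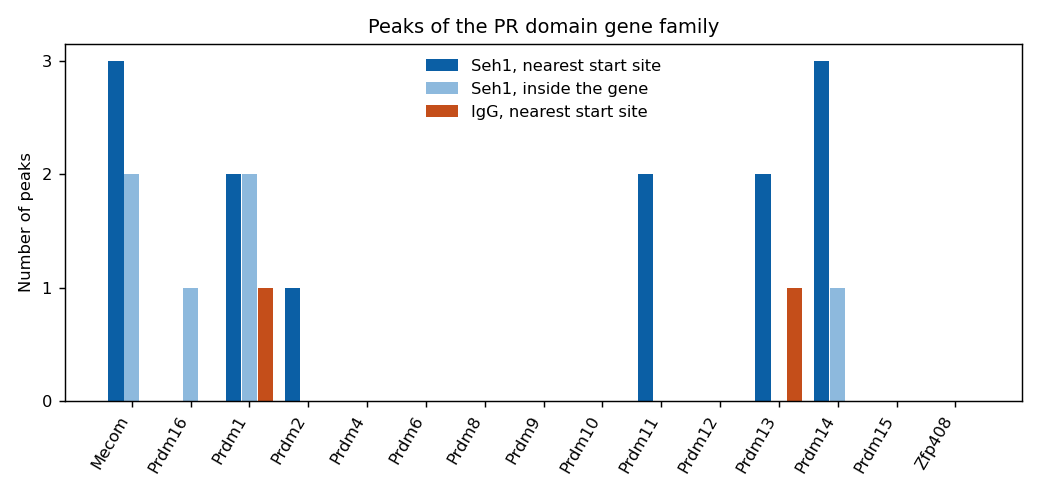
Number of peaks for 15 PR domain family genes, as Seh1 peaks given by the nearest start site (dark blue), Seh1 peak centres inside the gene (light blue) and IgG peaks given by the nearest start site (orange). Mecom reaches 3 and 2, Prdm16 only 1 inside the gene, and 8 of the other 13 genes were given no peak.

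Of 17 genes that encode binding partners of Mecom or Prdm16 or factors that work with them, 7 were given a Seh1 peak and 3 an IgG peak, beside 31.9% and 11.3% of all protein-coding genes. The median length of the 17 genes was 27.9 kb, against 17.2 kb over all protein-coding genes, and length was not matched. The corepressor genes Ctbp1 and Ctbp2 had 2 Seh1 peaks each and no IgG peak. The Ctbp1 peak of 331 bp lay in its first intron, 5.58 kb downstream of the TSS. Both Ctbp2 peaks lay in its first intron, 14.5 and 19.3 kb downstream. The related corepressor genes Ski and Skil also had 2 Seh1 peaks each, with both Ski peaks in its first intron and both Skil peaks upstream. Runx1, a regulator of blood stem cells, had 4 Seh1 peaks and 1 IgG peak. Smad3, of the TGF-beta pathway, had 1 Seh1 peak, and Hdac2, a histone deacetylase, had 1 of each list. Ppargc1a, which encodes a coactivator in brown fat, was given 1 IgG peak, 424 kb from its TSS. Its RefSeq span held 1 Seh1 peak that was classed as intergenic and given to Mir6417. Hdac1 held 1 Seh1 peak in an intron that was given to Marcksl1. The 9 partner genes given no peak included the histone methyltransferase genes Ehmt1, Ehmt2 and Suv39h1 and the blood factor genes Gata1 and Gata2.

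Genes were also ranked by likeness to each member, as those with the same number of given Seh1 and IgG peaks and the nearest length. For Mecom, 443 other protein-coding genes had 3 Seh1 and 0 IgG peaks, and the nearest in length were Kcnq5 (564 kb), St6galnac3 (527 kb), Myo16 (481 kb), Ptprm (688 kb) and Agap1 (440 kb). The numbers of Seh1 peaks inside these genes were 0, 8, 4, 7 and 6. Ptprm and Agap1 also held 1 IgG peak centre each inside, given to other genes. For Prdm16, 13765 other genes had 0 of both, and the nearest in length were Dnah11, Otud7a, Vps13d, Nhs and Focad. These held 0, 0, 5, 0 and 0 Seh1 peaks inside, and Otud7a held 1 and Focad 2 IgG peak centres. Among the 5 genes named for Mecom, the Seh1 counts inside the gene ranged from 0 to 8.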

How the data were processed

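Each deposited list holds 1 line per peak on mm10 with its position, annotation class, nearest TSS and gene, made by the authors with HOMER annotatePeaks.pl, per the file headers. The submitters' processing notes name Bowtie2 and HOMER without versions and list human builds, whereas the file headers name mm10, which is used here. No source used here states the peak caller's threshold or the read depth, and the deposited score was 0 for every peak. Peaks were listed per library.

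Gene positions came from the RefSeq table of GRCm38.p6, without genes listed below 3 Mb outside chromosome Y, whose coordinates belong to patches, which left 21775 protein-coding genes. Gene IDs matched for 15969 of 16033 Seh1 and 5173 of 5248 IgG peaks. Start sequences matched both genes. A peak was inside a gene when its centre lay in the gene's span, and overlap meant at least 1 bp. Length classes held genes within 1.5-fold of a member's length. Counting was checked on simulated peaks. Named genes were the members, list genes given a peak, nearest neighbours, genes whose span or start took a member peak and the 5 genes most alike. 1 gene of the PR domain family list is not reported here. The members and gene lists were chosen with earlier results of these data known. Python 3.11.15, pandas 2.3.3 and scipy 1.17.1 were used.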

Additional observations from a re-analysis of the deposited data

How the results depend on the processing

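The 3 Seh1 peaks given to Mecom were 2 when only peaks inside the gene, or only peaks above the minimum width, were counted. The count for Prdm16 rose from 0 to 1 when peaks inside the gene, or in its transcripts, were counted, by construction of the rule. IgG counts and overlaps with IgG peaks were 0 under each of the alternatives tried. Alternatives that only narrowed the rule could not have raised a 0. Centres within 1 kb could not either, with the nearest IgG peak centre 616 kb or more from each member peak. The Mecom exon peak was wider than 99.98% of Seh1 peaks and than 99.88% of exon-class peaks. The Prdm16 peak was wider than 77.9% of Seh1 peaks, 78.8% of intron peaks and 69.7% of those above the minimum width. The share of protein-coding genes given a Seh1 peak, 31.9%, was 79.1% and 69.4% near the lengths of Mecom and Prdm16 and 26.2% without peaks of minimum width. A stricter threshold could be approached only through width. No paired analysis was possible because each group has 1 library. Depth is unknown.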

Other observations

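Both genes share their chromosome with members of the same gene families: an actin-related gene, a Ski-type corepressor gene and an atypical protein kinase C gene. These pairs were chosen after their values were seen. On the Prdm16 side, Actrt2, Ski and Prkcz were each given 2 Seh1 peaks and 0 IgG peaks. On the Mecom side, Skil was given 2 Seh1 peaks, whereas Actrt3 and Prkci were given 0, and none of the 3 was given an IgG peak. Of these 6 genes, 4 were given a Seh1 peak and 0 an IgG peak, beside 31.9% and 11.3% of all protein-coding genes. The median length of the 6 genes was 42.4 kb, against 17.2 kb over all protein-coding genes, and length was not matched. A difference between the sides was not tested. The peaks of Ski and Prkcz lay inside these genes, and those of Skil and Actrt2 lay before them.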
